A study of Mus musculus with 3 samples.

Results

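Hem progenitors carrying the E11.5 reporter were compared with hem progenitors carrying the E12.5 reporter inside the same droplet libraries. The wild-type tissue came from C57BL/6J mouse embryos, with the hem region of 4 PGKCre;Rosa26YFP embryos at E11.5 pooled with that of 4 Wnt3aCre;Rosa26tdTomato embryos at E12.5. This single suspension was loaded as 2 libraries, each read with 10x Genomics 3′ chemistry version 3 as UMI counts (unique molecular identifiers, 1 per captured transcript). A further library, used here only for values set side by side, came from 4 pooled E12.5 Gmnc-/- embryos. Every stage and genotype is therefore 1 pooled sample, and the 2 wild-type libraries repeat the capture and sequencing but not the embryos. No test between stages is possible, and the intervals below cover counting error only.

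A cell entered the comparison with at least 1000 genes, at least 2000 UMIs and at most 10% mitochondrial UMIs. It also needed at least 4 UMIs of the hem genes Wnt3a, Rspo1 and Rspo2 together, at most 4 UMIs of Neurog2, Eomes and Gadd45g, and at most 2 UMIs of Col3a1. Its neuronal Tubb3 and Stmn2 had to stay under 8, and its choroid plexus gene Ttr under 20, per 10000 UMIs. These limits gave 2487 hem progenitors in library 1 and 2101 in library 2. Cells with at least 1 eYFP UMI and 0 dtTomato UMIs were taken as E11.5 (1725 and 1457 cells), and the reverse as E12.5 (368 and 284 cells), which makes 3834 members out of 33001 cells passing the quality limits in the 3 libraries. The remaining hem progenitors had UMIs of both reporters (82 and 68 cells) or of neither (312 and 292 cells).

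The cortical hem is the Wnt- and Bmp-secreting edge of the dorsal telencephalon, lying between the cortical primordium and the choroid plexus. It patterns the adjoining hippocampal field, and its progenitors give rise to Cajal-Retzius neurons, the early-born neurons of the cortical surface. A Cre recombinase under the PGK promoter is active in nearly all cells, whereas Wnt3a Cre marks cells that have expressed Wnt3a and their descendants. The E12.5 members are thus taken as the marked Wnt3a lineage of their embryos, while the E11.5 members were not selected by lineage. Some E12.5 members rest on a single dtTomato UMI, and their origin was not tested. Stage, lineage mark, Cre driver and embryo pool cannot be told apart in this comparison.

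The reporters were not equally easy to detect. E11.5 members had a mean of 7.95 and 8.78 eYFP UMIs per cell in libraries 1 and 2, and E12.5 members a mean of 5.25 and 5.22 dtTomato UMIs. Only 5.39% and 5.83% of E11.5 members rested on a single reporter UMI, against 21.2% and 20.4% of E12.5 members. The plot of reporter UMIs shows the same excess of single-UMI cells for dtTomato. Among cells that the Wnt3a Cre should not mark, dtTomato UMIs were found in 3.83% and 6.94% of erythroid cells (exact 95% intervals 1.85 to 6.93% and 3.94 to 11.2%; median 15595 and 17707 UMIs per cell). The share was 10.1% and 15.4% of mesenchyme cells, and dtTomato UMIs were in 5 of 40 and 6 of 37 microglia. Hem cells with eYFP carried a dtTomato UMI in 4.54% and 4.46% of cases (median 12082 and 13118 UMIs), and hem cells with dtTomato carried an eYFP UMI in 18.2% and 19.3%. How many single-UMI E12.5 members carry free RNA was not tested; values with and without them are given below.

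**Figure D1:**
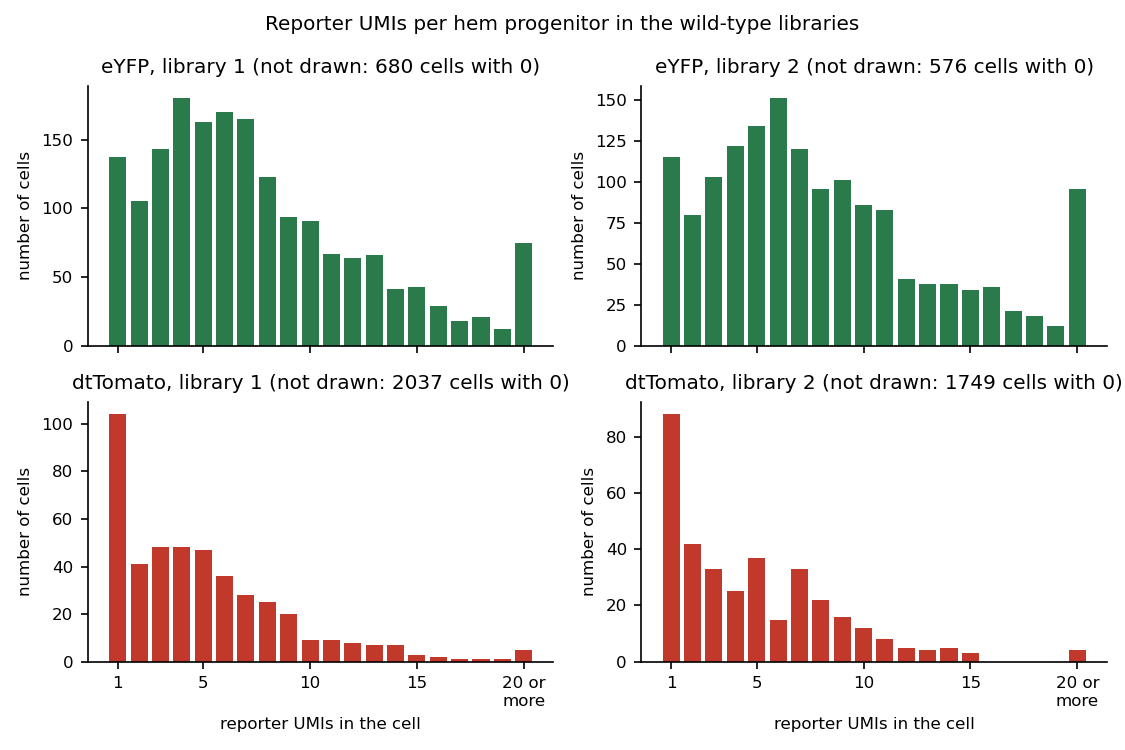
Number of hem progenitors (y axis) by the eYFP or dtTomato UMIs they carry (x axis, 20 standing for 20 or more) in each wild-type library, with cells at 0 left out and counted in the panel titles. The eYFP counts have a second rise above 2 UMIs, while the tallest dtTomato bar is at 1 UMI.

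Depth differed little between the stages. E11.5 members summed to 24130746 and 22780773 UMIs (median 11944 and 13009 per cell), and E12.5 members to 5582340 and 4630558 UMIs (median 12608 and 13963). The libraries shared 1914 barcodes, 52 of which passed the quality limits in both and 0 of which were hem progenitors in both. A shared barcode had a median of 32026 UMIs in its larger library and 705.5 in its smaller one, and 97 and 226 E11.5 members and 29 and 50 E12.5 members had one. Neural progenitor markers were high in both groups. The 6 markers Sox2, Nes, Vim, Hes1, Hes5 and Pax6 summed to between 3158 and 3256 CPM (counts per 1e6 UMIs of the summed cells). Other cells of the libraries had 2421 and 2432 CPM. Across stages and libraries 5 mesenchymal markers summed to between 20.3 and 31.2 CPM and 6 microglial markers to between 2.85 and 9.49 CPM. In other cells they summed to 59.0 and 66.8 CPM and to 48.1 and 39.4 CPM. Neuron markers (85.3 to 90.8 against 313 and 323 CPM) and Cajal-Retzius markers (32.8 to 56.4 against 221 and 231 CPM) were also lower in the members. The reverse held for 5 endothelial markers, at 10.97 to 23.3 against 7.23 and 7.48 CPM. Likewise 7 choroid plexus markers were at 348 to 388 CPM in the members against 310 and 332 CPM. The limits on Col3a1, Tubb3, Stmn2, Neurog2, Eomes and Gadd45g bear on the mesenchymal, neuron and Cajal-Retzius values, which are thus a description.

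The hem genes chose the members, so their levels are a description. Their summed count per cell was higher in the E12.5 group, with a median of 26 and 30 UMIs against 19 and 21 at E11.5, and 13 and 15 in cells with neither reporter. At least 16 of these UMIs were present in 74.7% and 78.2% of E12.5 members, in 58.7% and 65.2% of E11.5 members and in 39.7% and 47.6% of cells with neither. Wnt3a itself stood at 57.6 and 59.3 CPM in the E11.5 members, against 76.5 and 74.9 CPM in the E12.5 members. Cells just inside the limit, at 4 UMIs, numbered 83 and 40 at E11.5 and 9 and 6 at E12.5; just outside, at 3 UMIs, there were 73 and 64, and 9 and 9.

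Across the transcriptome, hem progenitors of both reporters were nearly alike. Of 6330 genes with at least 20 CPM and 50 UMIs on the higher side in each library, 95.02% differed by less than 1.2-fold on the mean of both libraries. A gene was called when it differed at least 1.5-fold the same way in both libraries, with 1 CPM added to each value. By this rule 15 genes were higher at E11.5 (0.237% of those tested) and 17 at E12.5 (0.269%). For scale, comparing library 1 with library 2 within a stage, where a gene had to pass in a single comparison, called 7 genes among E11.5 members (0.11%) and 16 among E12.5 members (0.247%). Between the libraries the log2 ratios of E12.5 over E11.5 differed by a median of 0.08. At 2-fold, 5 genes were called (0.079%), all of them higher at E11.5: Gm10709, Dlk1, Meg3, Sox1 and Gm3550. With at least 2 reporter UMIs required on both sides, 28 and 43 genes were called, 13 and 16 of them shared with the main calls. Using every hem progenitor without eYFP as the E12.5 side left 7 and 3 calls, and library 2 or library 1 alone gave 27 and 39 or 22 and 31.

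**Figure D2:**
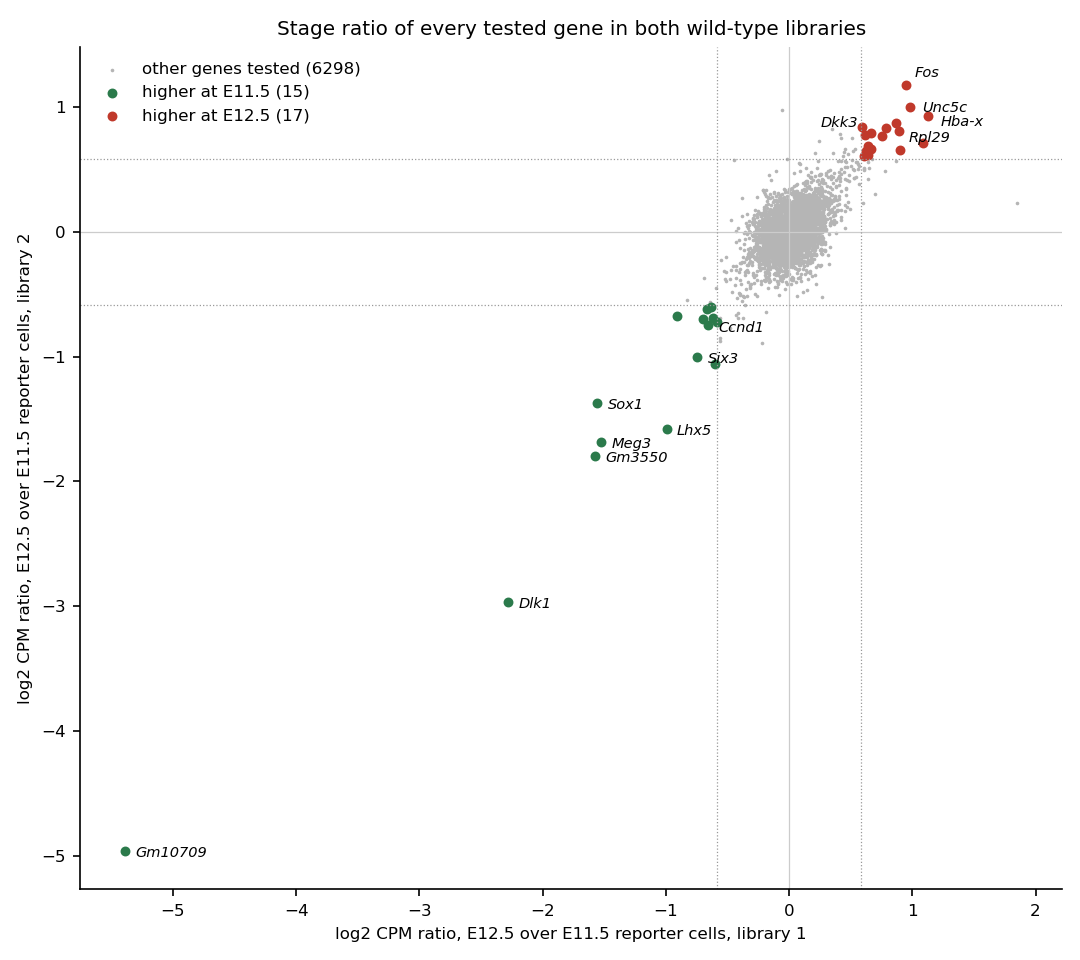
Each point is 1 of 6330 genes, placed by the log2 CPM ratio of E12.5 over E11.5 reporter cells in library 1 (x axis) and library 2 (y axis), with dotted lines at 1.5-fold. Most genes lie in a cloud around 0, with Gm10709 and Dlk1 far down the diagonal and 17 genes in the upper right corner.

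Dlk1 and Meg3, neighbours in 1 imprinted domain of chromosome 12, led the genes higher at E11.5. Dlk1 encodes a membrane protein with the EGF repeats of Notch ligands, and Meg3 is a long non-coding RNA (Ensembl ENSMUSG00000040856 and ENSMUSG00000021268; GRCm38 positions 109452823 to 109463336 for Dlk1 and 109541001 to 109571726 for Meg3). Dlk1 measured 63.9 and 77.7 CPM in E11.5 members and 12.4 and 9.07 CPM in E12.5 members. It was 5.17-fold higher at E11.5 in library 1 (95% counting interval 4.06 to 6.68) and 8.57-fold in library 2 (6.31 to 11.9), so both E11.5 values lay far above both E12.5 values. Meg3 measured 208 and 223 CPM at E11.5 against 71.5 and 68.7 CPM at E12.5, which is 2.91-fold (2.62 to 3.23) and 3.24-fold (2.90 to 3.64). Thinned to 5000 UMIs per cell, a Dlk1 UMI was found in 13.9% and 15.8% of E11.5 members and in 3.01% and 3.26% of E12.5 members (19.9% and 23.5% against 8.15% and 5.63% before thinning). Other imprinted genes, chosen after their values were seen, went in different directions. Plagl1 was at 82.8 and 81.0 CPM at E11.5 and 52.7 and 54.6 CPM at E12.5, higher at E11.5 but not called. Mirg, of the same domain as Dlk1, was under the minimum level, at 3.81 and 4.65 against 1.07 and 1.08 CPM. Peg3 was at 181 and 184 CPM at E11.5 and 230 and 225 CPM at E12.5, and Mest at 722 and 696 against 687 and 685 CPM.

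Sox1, a factor of neural progenitors, measured 23.5 and 23.9 CPM at E11.5 against 7.34 and 8.64 CPM at E12.5 (3.20-fold, 2.33 to 4.51, and 2.77-fold, 2.01 to 3.92). Lhx5, a LIM homeodomain factor of the hem and of Cajal-Retzius cells, measured 38.5 and 40.7 against 18.8 and 13.0 CPM, or 2.04-fold (1.67 to 2.53) and 3.14-fold (2.42 to 4.15). Six3, a homeobox factor of the anterior forebrain, stood at 99.3 and 91.6 against 58.8 and 45.1 CPM. In each of these genes the E11.5 values of both libraries exceeded both E12.5 values. The nuclear receptors Nr2f1 (212 and 228 against 134 and 148 CPM) and Nr2e1 (40.4 and 43.5 against 25.6 and 28.3 CPM) and the leucine zipper factor Creb5 (25.9 and 24.4 against 15.6 and 14.7 CPM) differed by 1.54- to 1.66-fold. Fezf1, another forebrain factor, chosen after its values were seen, was at 18.9 and 19.8 against 3.58 and 2.59 CPM, just under the 20 CPM minimum.

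The other named genes higher at E11.5 act at the cell surface or in the cell cycle. Ccnd1 encodes cyclin D1, which drives cells through G1, and measured 95.6 and 95.1 CPM at E11.5 against 60.2 and 56.1 CPM at E12.5 (1.59-fold, 1.42 to 1.79, and 1.69-fold, 1.49 to 1.93). The Ccnd1 gap was not seen at every level of the hem genes, as given below. The ephrin receptor gene Epha5 was at 20.1 and 20.6 against 10.2 and 12.53 CPM. Vcan, for a proteoglycan of the extracellular matrix, was at 43.1 and 45.1 against 27.8 and 27.6 CPM. Gabra2, a GABA-A receptor subunit, was at 25.0 and 23.1 against 16.1 and 10.6 CPM. All had intervals above 1 in both libraries. The secretory granule gene Scg5 was also called, at 25.3 and 23.8 against 16.5 and 14.04 CPM.

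Genes higher at E12.5 differed by at most 2.29-fold, and they were led by Unc5c and Fos. Unc5c, a receptor for the guidance cue netrin, measured 12.6 and 13.3 CPM at E11.5 and 25.8 and 27.6 CPM at E12.5 (2.05-fold, 1.67 to 2.50, and 2.07-fold, 1.67 to 2.55). Fos, an immediate early gene that also responds to tissue dissociation, measured 45.5 and 43.0 against 88.9 and 98.3 CPM (1.95-fold, 1.75 to 2.17, and 2.29-fold, 2.04 to 2.56). Its relative Fosb, chosen after its values were seen, was under the minimum level at 3.90 and 3.34 against 17.6 and 14.5 CPM. In the dissociation stress list, Fos was the 1 member called of 7 measured, against 0.506% of all tested genes. Dusp1 stood at 61.1 and 58.4 against 91.0 and 84.7 CPM. Ier2 and Dnajb1 lay within 0.07 of 0 on the log2 scale on the mean of both libraries. Of the 7 measured, 6 were higher at E12.5 in both libraries and 1 was lower in both, with a median log2 ratio of 0.22. The part of dissociation in the Fos difference was not tested.

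Dkk3, a secreted protein of the Dickkopf family, was at 44.2 and 48.1 CPM at E11.5 and 70.6 and 84.0 CPM at E12.5, or 1.60-fold (1.42 to 1.79) and 1.75-fold (1.55 to 1.96). Nbl1, a secreted Bmp antagonist, was at 14.1 and 13.1 against 22.9 and 21.4 CPM. Ccdc3, for another secreted protein, was at 32.2 and 32.8 CPM at E12.5, 1.77- and 1.82-fold above E11.5. For each of the 3 genes both E12.5 values exceeded both E11.5 values. The kinase gene Sgk1 (29.5 and 28.2 against 46.6 and 46.0 CPM) and the LIM-only cofactor gene Lmo2 (268 and 283 against 413 and 444 CPM) followed. Metabolic and transport genes were Pygl, a glycogen phosphorylase (31.3 and 34.0 against 53.4 and 58.5 CPM), and Slc14a2, a urea transporter (32.2 and 34.5 against 50.7 and 53.3 CPM). Stx3, a syntaxin of vesicle fusion, was at 18.8 and 20.8 against 36.0 and 33.3 CPM, and Sertm1 at 51.9 and 49.7 against 79.5 and 76.2 CPM.

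Gt(ROSA)26Sor, the non-coding RNA of the Rosa26 locus into which both reporters were inserted, was at 25.6 and 28.1 CPM in E11.5 members and 55.4 and 46.6 CPM in E12.5 members. In cells with neither reporter it was higher again, at 70.3 and 66.0 CPM. The reporter alleles differ between the pools at this very locus, so stage and allele cannot be told apart for it. The fucosyltransferase gene Fut10 was the last call at E12.5 outside the ribosomal and haemoglobin genes, at 17.0 and 13.2 against 26.2 and 24.4 CPM.

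**Figure D3:**
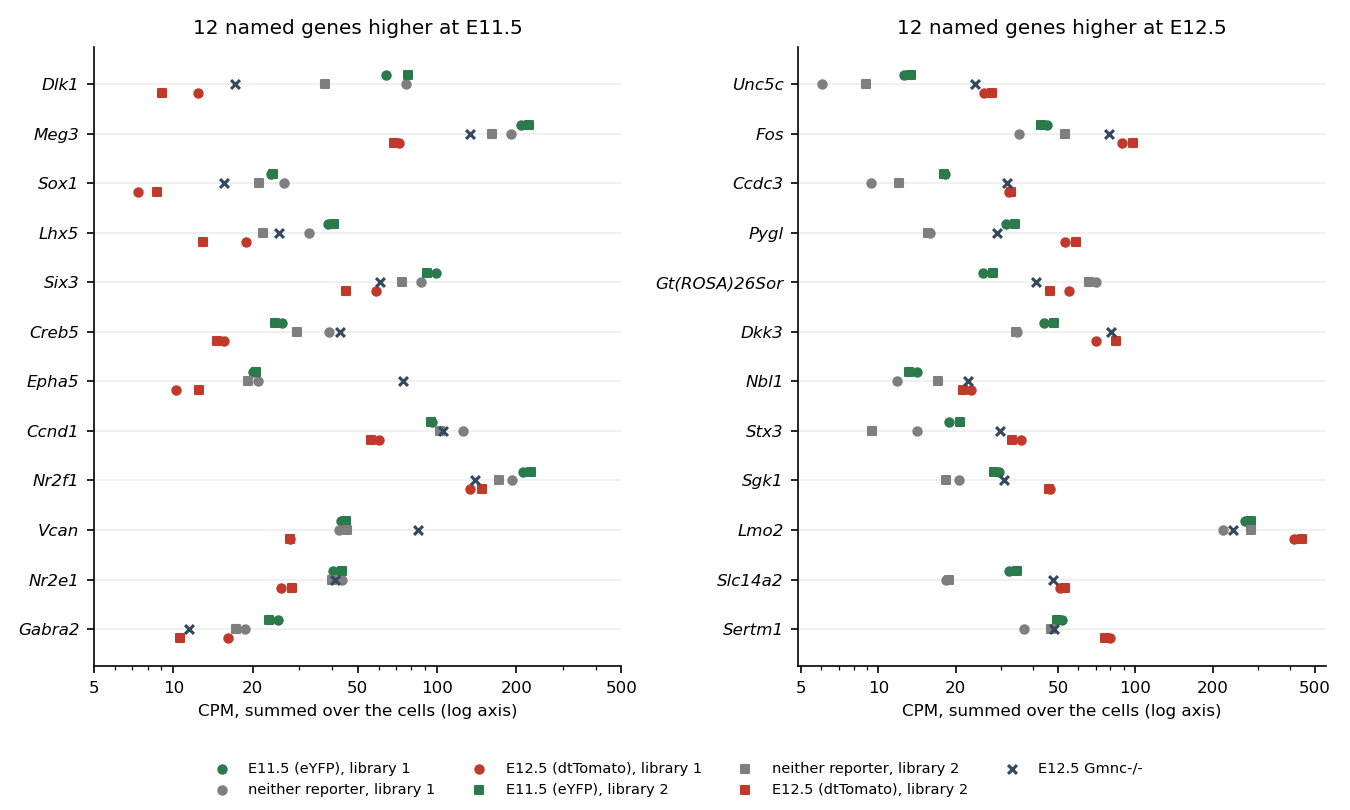
CPM (x axis, log scale) of the 12 named genes higher at E11.5 (left) and the 12 higher at E12.5 (right), one symbol per group and library, with E12.5 Gmnc-/- hem cells as crosses. In both panels the grey symbols for cells with neither reporter lie mostly nearer to the green E11.5 symbols than to the red E12.5 symbols, with Gt(ROSA)26Sor as the exception.

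The largest ratio in the comparison concerned a pseudogene and its parent, and it is uncertain which gene the reads came from. Gm10709, a processed pseudogene on chromosome 9 (7751725 to 7752204), measured 176 and 158 CPM at E11.5 and 3.22 and 4.10 CPM at E12.5, a 54.6-fold (34.5 to 92.2) and 38.5-fold (24.6 to 64.1) difference. Rpl29, a ribosomal protein gene on the same chromosome (106429454 to 106431568), went the other way with 579 and 642 CPM at E11.5 and 1057 and 1177 CPM at E12.5 (1.82- and 1.83-fold). Both were chosen after their values were seen. Over 480 aligned bases, from the first base of the Rpl29 start codon, the pair differ at 4 positions and are 99.2% identical. The last 120 of these bases in the GENCODE vM21 transcripts (GRCm38), shown because so few letters separate the 2 genes, hold T423C and G457A (Rpl29 base first, position in the alignment, then Gm10709 base), written in capitals:
Rpl29: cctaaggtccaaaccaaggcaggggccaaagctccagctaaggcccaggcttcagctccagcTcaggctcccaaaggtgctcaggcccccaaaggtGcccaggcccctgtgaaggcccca
Gm10709: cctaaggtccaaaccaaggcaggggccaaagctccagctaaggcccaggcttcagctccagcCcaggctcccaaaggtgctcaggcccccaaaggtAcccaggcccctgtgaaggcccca

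The Gm10709 and Rpl29 values followed the reporters outside the hem too. In cells with at most 1 hem gene UMI (1250 and 985 with eYFP, 142 and 116 with dtTomato), Gm10709 was at 178 and 149 CPM with eYFP and 1.73 and 1.02 CPM with dtTomato. Rpl29 was at 646 and 733 against 1255 and 1355 CPM there, and Gt(ROSA)26Sor at 23.3 and 20.4 against 101 and 84.9 CPM. Fos also kept its direction outside the hem, with 14.3 and 13.8 against 38.0 and 75.7 CPM. Dlk1 (3.39 and 2.25 against 2.59 and 2.05 CPM) and Unc5c (1.42 and 1.03 against 1.30 and 0.51 CPM) were close to absent there, so a gap could not be seen. Meg3 was at 76.7 and 74.5 against 56.6 and 59.8 CPM, and Sox1 at 54.7 and 56.9 against 60.1 and 56.3 CPM. These cells are of several types, whose mix can differ between the reporters. Gm3550, also a predicted gene chosen after its values were seen, was at 43.1 and 52.1 CPM in E11.5 and 13.8 and 14.3 CPM in E12.5 hem progenitors.

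The calls of 3 haemoglobin genes as higher at E12.5 rested on few cells. Hba-x was at 360 and 697 CPM at E11.5 and 789 and 1330 CPM at E12.5, with Hbb-y and Hba-a1 in the same direction. Haemoglobin made up at least 1% of UMIs in 4 and 6 of the E11.5 members and in 2 and 2 of the E12.5 members. Without those cells the summed haemoglobin genes stood at 2.60 and 2.30 per 10000 UMIs at E11.5 and 2.47 and 2.21 at E12.5, so the direction turned. The pools also differed in Xist, at 1066 and 1027 against 868 and 816 CPM.

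The Wnt ligand genes that the rule did not use were mostly somewhat higher at E12.5, none of them called. Of 7 measured, 6 were higher at E12.5 in both libraries, with a median log2 ratio of 0.23 against 0.00 for all tested genes. Wnt5a was at 36.3 and 39.1 CPM at E11.5 and 58.6 and 59.0 CPM at E12.5, or 1.61- and 1.51-fold, and missed the call in library 2 once 1 CPM was added. Wnt9a was at 47.0 and 47.7 against 68.3 and 64.8 CPM. Wls, which carries Wnt proteins to the cell surface, was at 298 and 308 against 413 and 410 CPM. Wnt7b was level, at 161 and 171 against 150 and 179 CPM. The hem score described above was higher in the same group. Among cells with 16 or more hem gene UMIs, Wnt5a was at 45.7 and 47.3 against 62.9 and 66.4 CPM. Wls was at 352 and 357 against 457 and 444 CPM there. Both genes were also higher at E12.5 in both libraries with 8 to 15 UMIs. With 4 to 7 UMIs (30 and 19 E12.5 cells), log2 ratios were -0.10 and -2.14 for Wnt5a and -0.49 and -0.08 for Wls. The part of the hem score in the difference of the Wnt ligand genes was not tested.

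Wnt receptors, targets and inhibitors did not follow in 1 direction. None of 7 receptors was called (median 0.08), with the receptor gene Fzd10 at 25.6 and 26.3 against 37.4 and 37.6 CPM and Fzd2 the other way at 109 and 109 against 88.3 and 81.2 CPM. Of 9 targets, 1 was called, against 0.506% of all tested genes. It was Ccnd1, which was lower at E12.5. Axin2, a feedback inhibitor widely read as a Wnt target, was at 145 and 150 against 182 and 180 CPM, and Lef1, a nuclear partner of beta-catenin, at 60.2 and 61.6 against 53.6 and 51.0 CPM. Of 5 secreted antagonists, 1 was called, Dkk3. A single call in so short a list is not read as a result about the list.

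Bmp genes were close to level. None of 2 ligands, 7 receptors and antagonists and 6 targets was called, with medians of 0.07, 0.08 and -0.02. Bmp4 was at 116 and 121 CPM at E11.5 and 112 and 94.6 CPM at E12.5, Bmp7 at 93.0 and 87.4 against 115 and 113 CPM. The target genes Id1 and Id3 lay within 0.20 of 0 on the log2 scale in each library. Id4 was lowest among the targets, at 88.5 and 95.4 against 61.8 and 76.2 CPM.

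Of 23 hem and midline transcription factors 2 were called, against 0.506% of all tested genes. Both, Lhx5 and Nr2f1, were higher at E11.5, and the median was -0.03. Lmx1a, a factor required for hem fate, was at 69.0 and 67.5 against 71.5 and 81.4 CPM. Tfap2c was lower at E12.5 (26.6 and 29.0 against 17.7 and 15.3 CPM) but missed 1.5-fold in library 1. Lhx2, which restricts hem extent, was at 272 and 272 against 214 and 220 CPM. The Zic genes, by contrast, were within 0.17 of 0 on the mean of both libraries.

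Genes that mark young or older neural progenitors showed small shifts. Of 7 early genes measured, 1 was called, Dlk1, against 0.506% of all tested genes, and the median of all 7 was -0.10. Hmga2 was at 255 and 256 against 227 and 222 CPM and Igf2bp1 at 197 and 192 against 181 and 183 CPM. Prtg went against the list, at 22.5 and 21.1 against 30.5 and 36.3 CPM. None of 12 late genes was called, and their median was 0.18. Fabp7, a fatty acid binding protein of radial glia, was at 749 and 781 CPM at E11.5 and 974 and 1041 CPM at E12.5, Sox9 at 125 and 131 against 154 and 171 CPM. The nuclear factor I genes were slightly higher at E12.5, Nfia at 218 and 216 against 256 and 258 CPM and Nfib at 380 and 379 against 430 and 430 CPM. In the E12.5 Gmnc-/- hem cells Nfia was at 553 CPM and Nfib at 818 CPM.

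Cell cycle genes differed by phase and only slightly. All 20 mitotic genes were lower at E12.5 in both libraries, none past 1.5-fold, with a median of -0.16 and a lowest value of -0.27 for Kif20b. The libraries repeat 1 suspension, and for no list is the share of all tested genes with the same direction in both given here. The proliferation marker Mki67 was at 211 and 212 CPM at E11.5 and 193 and 163 CPM at E12.5, and Top2a at 523 and 508 against 466 and 426 CPM. The 19 replication genes had a median of -0.01, with 3 higher and 7 lower in both libraries. Among 10 regulators of G1 and cell cycle exit, 1 was called, Ccnd1, against 0.506% of all tested genes. The related cyclin gene Ccnd2 was at 839 and 823 against 913 and 936 CPM.

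No gene was called in the lists of multiciliation and Cajal-Retzius regulators and of choroid plexus genes. Lhx5, also a factor of Cajal-Retzius cells, was listed with the hem factors and was called. The limits on Neurog2, Eomes, Gadd45g, Tubb3, Stmn2 and Ttr had already left out cells with more of these markers of the hem's progeny. In the list of multiciliation and Cajal-Retzius regulators 3 of 19 genes reached the minimum level, and Foxj1, a regulator of motile cilia, was at 31.2 and 32.5 against 34.9 and 38.0 CPM. All 5 measured choroid plexus genes were higher at E12.5 in both libraries, by a median of 0.20, with Folr1 at 71.9 and 64.0 against 76.5 and 79.5 CPM. Among 12 Notch pathway genes none was called (median 0.15), with the target gene Hey1 at 73.4 and 78.7 against 88.1 and 99.3 CPM. Of 11 guidance and adhesion genes 1 was called, Unc5c, against 0.506% of all tested genes. In all 9 of the 11 were higher at E12.5 in both libraries, among them Slit2, a repulsive cue, at 99.9 and 90.8 against 121 and 121 CPM. None of 5 Fgf pathway genes and none of 8 glycolysis and hypoxia genes was called.

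**Figure D4:**
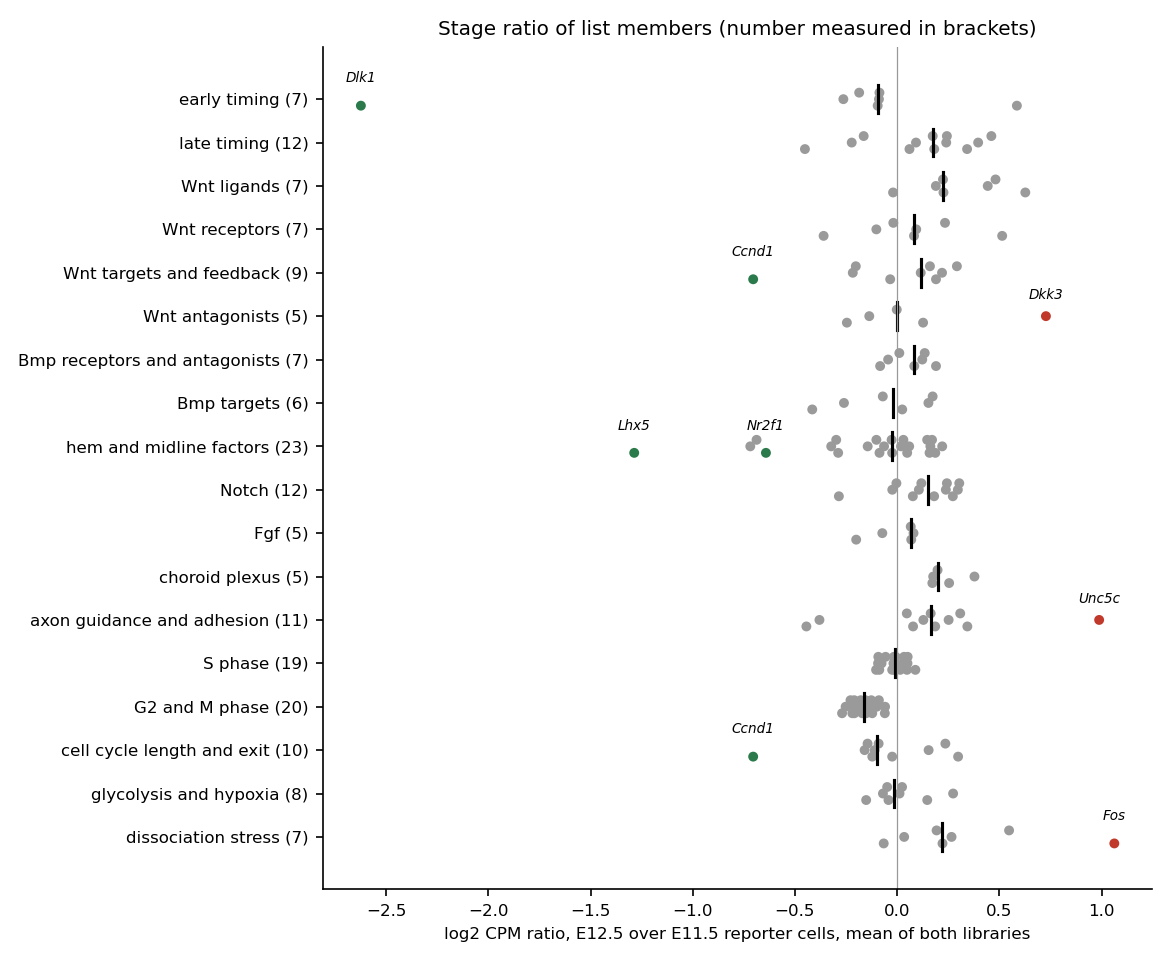
Each point is 1 measured list member, placed by its log2 CPM ratio of E12.5 over E11.5 (mean of both libraries, x axis); black bars are list medians and coloured, named points are called genes. Mitotic genes lie left of 0, Wnt ligands and choroid plexus genes mostly right of it, and the called genes stand apart from their lists.

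In most called genes, hem progenitors with neither reporter were nearer to the E11.5 than to the E12.5 members, but not in the pseudogene pair. Of the 15 genes higher at E11.5, 12 were nearer to the E11.5 level in these cells, and of the 17 higher at E12.5, 14 were. Dlk1 measured 76.3 and 37.7 CPM with neither reporter, and Meg3 190 and 161 CPM. Nearer did not always mean alike, since most named genes higher at E12.5 lay below both stages in both libraries. These were Unc5c, Ccdc3, Pygl, Dkk3, Stx3, Sgk1, Lmo2, Slc14a2 and Sertm1, with Lmo2 nearly level with E11.5 in library 2. Among them Unc5c was at 6.04 and 8.92 CPM, Pygl at 15.9 and 15.5 CPM and Slc14a2 at 18.4 and 18.9 CPM. Pygl and Slc14a2 were also called lower than in the E11.5 members. The genes nearer to the E12.5 level were Scg5, Gm10709 and Gm3550 on 1 side and Gt(ROSA)26Sor, Fut10 and Rpl29 on the other. Rpl29 was at 1038 and 1274 CPM, close to the E12.5 members. Gm10709 was at 21.4 and 9.43 CPM, between the stages and nearer to E12.5 on the log2 scale. The hem score of these cells was also lower, with a median of 13 and 15 UMIs against 19 and 21 at E11.5. Its part in their values was not tested. Which embryos these cells came from is not given by the reporters and was not tested.

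Gene by gene, more genes separated the cells with neither reporter from the E12.5 members, whose summed UMIs are fewer, than from the E11.5 members. Against E12.5 members 40 genes were higher with neither reporter (0.636%) and 68 were lower (1.08%), and against E11.5 members 18 were higher (0.287%) and 12 lower (0.191%). These comparisons share the cells with neither reporter. Lhx2 was at 450 and 486 CPM with neither reporter, Tgfb2, a growth factor gene, at 38.8 and 42.1 CPM against 20.8 and 19.8 CPM at E11.5 and 10.6 and 12.7 CPM at E12.5. The imprinted gene Nnat was lower with neither reporter, at 1361 and 1654 CPM against 2497 and 2570 CPM at E11.5 and 3312 and 3325 CPM at E12.5. Lhx2, Tgfb2 and Nnat were chosen after their values were seen. When all hem progenitors without eYFP stood for E12.5, 7 of the 24 named genes stayed past 1.5-fold on the mean of both libraries.

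Within the E12.5 members, the leading genes also differed by the amount of reporter. Members with a single dtTomato UMI (78 and 58 cells) had Dlk1 at 34.6 and 36.3 CPM, and those with 2 or more (290 and 226 cells) at 6.37 and 2.42 CPM. Unc5c was at 9.29 and 8.79 CPM with 1 UMI and at 30.2 and 32.3 CPM with more, and Fos at 64.2 and 39.6 against 95.5 and 113 CPM. Members with a single dtTomato UMI thus lay between cells with neither reporter and the rest of the E12.5 group for Dlk1 and Meg3. Gm10709 was low in both, at 3.38 and 9.89 CPM with 1 UMI and 3.18 and 2.69 CPM with more. In E11.5 members with a single eYFP UMI (93 and 85 cells) Gm10709 was at 85.7 and 92.1 CPM, between the 180 and 165 CPM of members with 2 to 4 UMIs and the level of the E12.5 group.

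**Figure D5:**
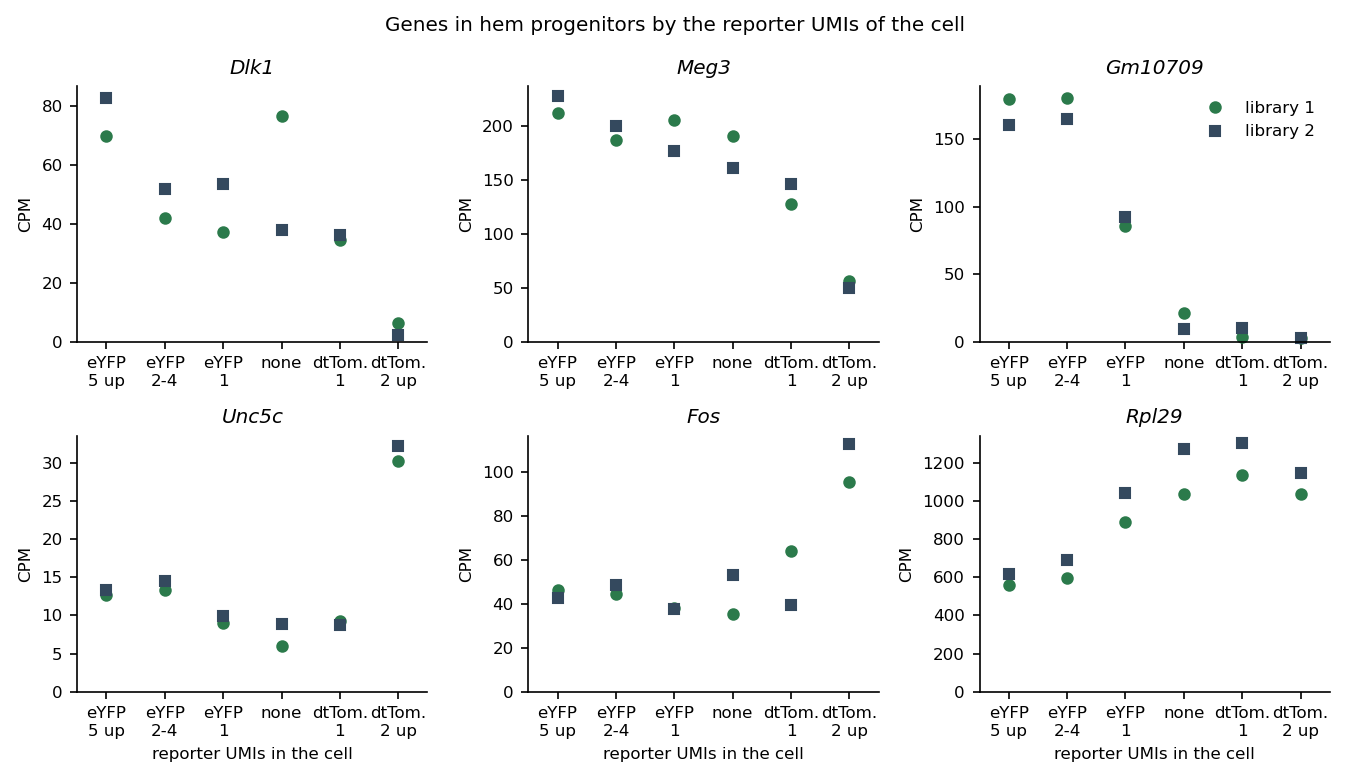
CPM (y axis) of 6 genes in hem progenitors grouped by their reporter UMIs (x axis), with 1 symbol per wild-type library. Gm10709 and Rpl29 step between eYFP cells with 2 or more UMIs and all cells without eYFP, whereas Dlk1, Meg3 and Unc5c step mainly at cells with 2 or more dtTomato UMIs.

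The stage difference was followed at matched levels of the hem genes, which is a partial match since these genes chose the members. Among cells with 16 or more hem UMIs (1012 and 950 at E11.5, 275 and 222 at E12.5), all 24 named genes kept their direction in both libraries and 10 stayed past 1.5-fold. With 8 to 15 UMIs 22 kept their direction and 14 stayed past 1.5-fold, and with 4 to 7 UMIs, where E12.5 had only 30 and 19 cells, 14 and 8. The 24 genes were chosen for their difference over these same members, and the highest group held 74.7% and 78.2% of E12.5 members. Kept directions are thus no separate check. In the highest group Dlk1 was at 53.05 and 68.7 CPM at E11.5 and 12.7 and 10.7 CPM at E12.5, and Unc5c at 15.7 and 16.2 against 29.4 and 32.0 CPM. Dkk3 had a smaller gap there, at 61.3 and 61.1 against 81.2 and 96.1 CPM, than over all members. Ccnd1 was lower at E12.5 in both libraries only in the highest group, at 65.8 and 74.2 against 42.3 and 33.1 CPM. With 8 to 15 UMIs it was at 139 and 138 against 90.9 and 177 CPM. With 4 to 7 UMIs it was at 164 and 156 against 178 and 151 CPM. In cells with at most 1 hem gene UMI, Ccnd1 was at 158 and 164 CPM with eYFP and 221 and 171 CPM with dtTomato. Among cells with a Wnt3a UMI only, 11 of the 24 named genes stayed past 1.5-fold, and the log2 ratio of Dlk1 was -1.33 against -2.62 over all members.

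The E12.5 Gmnc-/- hem cells (2527 by the same limits without the reporters) gave a second set of E12.5 levels, from another genotype, run and gene annotation. Dlk1 was at 17.2 CPM there and Unc5c at 23.8 CPM, both nearer to the E12.5 than to the E11.5 members. Fos was at 79.3 CPM, Dkk3 at 80.3 CPM and Ccdc3 at 31.7 CPM, again near E12.5. Six3, Nr2f1, Gabra2, Nbl1, Stx3 and Slc14a2 were also nearer to E12.5. Meg3, at 134 CPM, lay between the stages, as did Sox1, Lhx5 and Gt(ROSA)26Sor. Ccnd1, at 106 CPM, Epha5, at 74.5 CPM, Creb5, at 42.9 CPM, and Vcan, at 84.6 CPM, lay above both. Nr2e1, at 41.1 CPM, and Sgk1, at 30.8 CPM, were near E11.5. Lmo2, at 240 CPM, Pygl, at 28.9 CPM, and Sertm1, at 48.3 CPM, were below both stages. Their hem score was a median of 11 UMIs per cell, lower than in either reporter group, and its part in these values was not tested.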

How the data were processed

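UMI counts per gene and barcode, as deposited by the authors, were used for 2 wild-type libraries and 1 Gmnc-/- library. Cell Ranger 3.1.0 and mm10 appear for every library per the submitters' processing notes. The matrix of the Gmnc-/- library names Cell Ranger 6.0.0 per the file headers. Their annotation release: not given in the sources used here. Every deposited barcode had at least 500 UMIs. Groups come from the labels and stages from the reporter counts. No doublet caller was run; cells with both reporters were left out, and doublets within a stage were not removed.

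UMIs were summed per reporter group and library and divided by the group's total (CPM). Log2 ratios used a pseudocount of 1 CPM, while printed folds are ratios of CPM with intervals at 95% conditional on the summed counts. Shares have exact Clopper-Pearson intervals. PCR copies are collapsed by UMI, but intervals cover counting error only. All features entered except 10 genes used to choose cells and the transgenes. Named genes were the first 12 on each side, ranked by the smaller of the 2 log2 ratios, among called genes whose intervals excluded 1, with haemoglobin, ribosomal, mitochondrial, sex-linked, Gm-number and Rik names left out, plus up to 6 members of each of 27 gene lists. The members and lists were chosen with earlier results of these data known. Of the lists, mesenchyme, microglia and endothelium markers had 0 members at the minimum level, neuron markers 2 of 10 and other progenitor markers 1, Six3. TMM factors came from edgeR 4.0.16 as an alternative scaling of the counts, and other work used Python 3.11.15, numpy 2.4.6 and scipy 1.17.1. Each choice was changed alone, in 14 alternative settings and 3 more added after seeing the data, except that 1 setting lowered the CPM and UMI minimum together. The values of 1 list member are not reported here.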

Additional observations from a re-analysis of the deposited data

Results flagged for a closer look

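Hem progenitors with UMIs of both reporters, which the stage comparison leaves out, made up 3.3% of hem progenitors in library 1 and 3.24% in library 2 (exact 95% intervals 2.63 to 4.08% and 2.52 to 4.09%). No embryo carried both reporters, so these cells are signal outside the measured groups. Those with 1 eYFP UMI (44 and 30 cells) had Gm10709 at 1.48 and 8.59 CPM and Dlk1 at 4.45 and 2.15 CPM. Those with 2 or more (38 and 38 cells) had Gm10709 at 102 and 121 CPM. Their median depth was 15984 and 17015 UMIs per cell, above that of either stage.

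The transgene sequence named IRESCRE was seen in 1.36% of E12.5 members in library 1 and 3.17% in library 2 (5 and 9 cells, exact intervals 0.443 to 3.14% and 1.46 to 5.93%). In E11.5 members it was seen in 1 cell of each library, and in cells with neither reporter in 2 and 1 cells. No stage was assigned from it.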

How the results depend on the processing

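The 15 genes higher at E11.5 and 17 at E12.5 became 28 and 43 with at least 2 reporter UMIs, 84 and 49 with no CPM minimum and 10 UMIs, 6 and 10 at a 50 CPM minimum, and 5 and 0 at 2-fold. Only cells with no Mki67 or Top2a UMI gave 29 and 9 calls among 3548 testable genes, and only cells with 8 to 15 hem UMIs 79 and 6 among 3361. Only cells with a Wnt3a UMI gave 11 at E12.5, cells of 8000 to 20000 UMIs 25 at E11.5, and all cells without eYFP as the E12.5 side 7 and 3. Leaving out either library gave 22 to 27 calls at E11.5 and 31 to 39 at E12.5, since a gene then had to pass in 1 library. Median-ratio and TMM scaling, equal weight per cell, hem genes of 8 or more UMIs, leaving out the deepest 5% of cells and leaving out shared barcodes kept both counts within 1.5 times.

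The early timing median of -0.10 was -0.10 with hem genes of 8 or more UMIs, -0.060 in cells with a Wnt3a UMI, -0.13 at 8000 to 20000 UMIs, -0.10 with median-ratio and -0.12 with TMM scaling, -0.13 without cells above the 95th percentile of UMIs, -0.16 without Mki67 or Top2a, -0.12 without shared barcodes, -0.073 with all cells without eYFP, -0.11 with 8 to 15 hem UMIs, and -0.13 to -0.12 leaving out either library. The late timing median of 0.18 was 0.26 at 8000 to 20000 UMIs, 0.34 without Mki67 or Top2a, 0.073 with all cells without eYFP, 0.081 with 8 to 15 hem UMIs, and 0.094 to 0.21 leaving out either library. Of 336 pairs of a named gene and a setting, 279 stayed past 1.5-fold and 1 turned: Creb5 was at 0.063 in cells with no Mki67 or Top2a UMI. The named genes were chosen in the main setting, whose cells the other settings largely share. Of the 24 named genes 11 stayed past 1.5-fold in cells with a Wnt3a UMI, 15 with no Mki67 or Top2a UMI and 7 with all cells without eYFP. The cause of these shifts was not tested. No paired analysis was possible because each stage is 1 pooled suspension whose libraries already hold both stages, and the Gmnc-/- tissue has 1 library.

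Depth limits the E12.5 side most, since its summed UMIs were 5582340 and 4630558 against 24130746 and 22780773 at E11.5.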
